A study of Mus musculus with 17 samples.

Results

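The 27 genes described here make, carry, receive or anchor the signal of gamma-aminobutyric acid (GABA), and all 27 were found among the 26131 genes of a single-nucleus RNA count matrix from mouse brain. They were chosen by name: 2 synthesis enzymes (Gad1, Gad2), the vesicular carrier Slc32a1, the membrane carrier Slc6a11, the breakdown enzyme Abat, 12 subunits of GABA-A receptors (Gabra2, Gabra3, Gabra4, Gabra5, Gabra6, Gabrb1, Gabrb2, Gabrg1, Gabrg3, Gabrd, Gabre, Gabrq), both GABA-B receptor subunits (Gabbr1, Gabbr2), the postsynaptic genes Gphn and Nlgn2, the chloride carriers Slc12a5 and Slc12a2, and the trafficking genes Gabarap, Gabarapl1, Gabarapl2 and Trak2.

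GABA is the main inhibitory transmitter of the adult brain. It is made from glutamate by glutamate decarboxylase, packed into vesicles by the product of Slc32a1, taken up again by membrane carriers in neurons and astrocytes, and broken down by the transaminase Abat. GABA-A receptors are chloride channels built from several subunits, whose mix sets where they sit and how they open, so the effect of GABA also depends on the chloride gradient that Slc12a5 (export) and Slc12a2 (import) maintain, whereas GABA-B receptors are G protein-coupled dimers of the Gabbr1 and Gabbr2 products.

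All 17 animals were female Human TfR knock-in mice, homozygous for the human transferrin receptor (labelled hTfR KI HOM) and aged 2.3 months, so every group, saline included, carried the knock-in. They received 4 weekly intravenous doses over 24 days, and tissue was taken 72 h after the last dose. OTV:Malat1 (3 animals) is an oligonucleotide transport vehicle, an Fc engineered to bind the transferrin receptor, that carries an antisense oligonucleotide (ASO) against the nuclear RNA Malat1. In anti-TfR:Malat1 (6 animals) an antibody to the receptor carries the oligonucleotide, and both were given at 50 mg per kg. Malat1 ASO (4 animals) is the free oligonucleotide at 2 mg per kg, and saline was given to 4 animals. The posterior part of the brain was used, and nuclei were sorted on the DNA stain DAPI straight into the capture reaction. Nothing in the labels says more about the animals of a group than that they are separate samples, so p-values measure the spread between these samples. The deposited metadata put the animals in batches 1 to 4, batch 1 held no OTV:Malat1 animal, and the fits reported carry no batch term.

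The matrix held 284074 nuclei and 1099241149 unique molecular identifiers (UMIs, one per captured RNA molecule), with 13841 to 18365 nuclei, 55393588 to 79866411 UMIs and a median of 2894 to 4052 UMIs per nucleus in each animal. The authors' own call marked 16.8% of nuclei as doublets, and these were kept. Of 273792 distinct barcodes, 10044 (3.67%) occurred in more than 1 animal, and each nucleus was identified by barcode and animal. Malat1, the target, checked the labels: over all nuclei its mean level was 68510 CPM (the gene's UMIs over all UMIs, scaled to 1e6) with saline, 65530 with Malat1 ASO, 59160 with anti-TfR:Malat1 and 40020 with OTV:Malat1. In oligodendrocytes it was lower with OTV:Malat1 than with saline by edgeR (log2 fold change -2.79, SE 0.19, adjusted p = 8.74e-08), whereas in neurons the log2 fold change of -0.65 had an adjusted p of 1. Over all nuclei no gene, Malat1 included, had an edgeR adjusted p below 0.05 in any comparison. With anti-TfR:Malat1 or Malat1 ASO against saline no gene did in any class, so for these groups the check rests on the means. Cerebellar-type nuclei stood apart: 4 animals, 1 given Malat1 ASO, 2 given anti-TfR:Malat1 and 1 given OTV:Malat1, held at least 100 UMIs of the cerebellar granule cell gene Gabra6. Below, the treatment results for Gabra6 over all nuclei and in neurons are given with and without these animals. The 4 animals differ from the others in cluster 16, whose mean over 17 animals therefore mixes unlike nuclei, and that cluster is described with Gabra6.

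Classes of nuclei were the deposited cell type labels, and neurons were divided by the deposited clusters. Defining markers were found in each labelled type: Mog averaged 1313 CPM in oligodendrocytes, Aqp4 155 in astrocytes, P2ry12 1263 in microglia, Mrc1 2778 in perivascular macrophages and Cldn5 300 in vascular cells. Several clusters with the label Neurons were led by genes of other cells. The largest was cluster 13, 7336 nuclei led by Pdgfra (610 CPM), Vcan and Cspg4, with Rbfox3 at only 15.97 CPM against 451 in the remaining neurons. These oligodendrocyte precursor-like nuclei are treated as a class of their own, and "neurons" below means the other 185932 nuclei with that label. These still include 5 smaller clusters led by glial, vascular or precursor genes: cluster 2 (5818 nuclei, Il33 and Aspa), cluster 11 (1284, Inpp5d and Ikzf1), cluster 14 (1147, Slc47a1 and Bnc2), cluster 17 (1785, Pdgfra and Vcan) and cluster 18 (1656, Siglech and Ly86). Their nuclei stay in the sums over neurons, and levels by cluster are given for the other 11 clusters of at least 1000 nuclei, called the described clusters. Statements on the highest or lowest cluster of a receptor subunit or of Gphn leave out cluster 16 unless it is named. Clusters 1 (36109 nuclei), 4 (19782) and 10 (12271) were GABAergic-like by Dlx6os1 (149, 110 and 109 CPM, against 0.704 in cluster 3), Dlx1 and Erbb4. Cluster 1 was led by Otx2os1, Ebf2, Kcnip1 and Dlx6os1, and cluster 10 by Rarb, Rgs9 and Drd2. Cluster 9 (13572 nuclei) was dentate granule neuron-like by Prox1, Dock10, C1ql2 and Calb1, cluster 12 (8043) thalamic neuron-like by Prkcd, Lef1, Tcf7l2 and Rora, and clusters 3, 5, 6, 7 and 8 were excitatory neuron-like by Slc17a7 (178 to 231 CPM, against 11.3 in cluster 4), Neurod6 and Camk2a. Of cluster 6 nuclei 62.0% were called doublets by the authors, and of cluster 4 nuclei 44.9%, and outside the described clusters 97.0% in cluster 17, 85.4% in cluster 18 and 55.4% in cluster 14. The authors' labels and clusters come from these same nuclei, whose counts include the 27 genes, so levels by class are a description and carry no test.

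The stretches before the transcription starts of 4 members are shown because these members mark classes of neurons in the results: Gad1, Gad2 and Slc32a1 are highest in the GABAergic-like clusters, and Gabra6 marks the cerebellar-type nuclei of a few animals. They are the RefSeq windows of GRCm38.p6 up to 250 bases before the start, ended where annotated untranslated sequence begins, with CpG dinucleotides (the letters CG, which read the same on both strands) in capitals. Gad1 is at chr2:70561879-70562041 on the plus strand, Gad2 at chr2:22622077-22622204 on the plus strand, Slc32a1 at chr2:158610508-158610757 on the plus strand and Gabra6 at chr11:42321073-42321322 on the minus strand.
Gad1: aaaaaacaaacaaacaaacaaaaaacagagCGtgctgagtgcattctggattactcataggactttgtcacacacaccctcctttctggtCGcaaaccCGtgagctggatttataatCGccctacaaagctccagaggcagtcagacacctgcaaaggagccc
Gad2: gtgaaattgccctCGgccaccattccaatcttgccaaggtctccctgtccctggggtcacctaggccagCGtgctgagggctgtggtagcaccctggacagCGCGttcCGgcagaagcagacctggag
Slc32a1: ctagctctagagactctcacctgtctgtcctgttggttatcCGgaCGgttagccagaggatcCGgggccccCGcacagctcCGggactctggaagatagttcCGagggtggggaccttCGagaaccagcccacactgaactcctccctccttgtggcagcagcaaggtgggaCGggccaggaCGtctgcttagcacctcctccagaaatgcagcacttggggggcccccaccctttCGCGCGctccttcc
Gabra6: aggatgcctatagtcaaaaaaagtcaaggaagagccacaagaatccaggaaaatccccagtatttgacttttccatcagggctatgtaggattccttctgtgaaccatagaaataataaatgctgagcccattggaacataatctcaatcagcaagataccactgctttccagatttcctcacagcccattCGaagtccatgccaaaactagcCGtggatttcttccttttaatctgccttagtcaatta
Over the full 250 bases the window held 17 CpG for Gad1, 13 for Gad2, 12 for Slc32a1 and 2 for Gabra6. Windows were found for 24 of the 27 members, with a median of 13 CpG against 6 over all 32851 windows, and 3 members had fewer than 5 CpG, which 44.4% of all windows had. In the GENCODE annotation of mm10, Gad1 spans chr2:70553072-70602014, Gad2 chr2:22622205-22693874, Slc32a1 chr2:158610767-158615748 and Gabra6 chr11:42306437-42321072, and the RefSeq start used for the Gad1 window lies inside the GENCODE span.

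Among 7 types, taking cluster 13 as one, the mean level was highest in neurons for 9 members, in astrocytes for 7, in the precursor-like cluster 13 for 3, in perivascular macrophages for 3, in vascular cells for 2, in microglia for 2 and in oligodendrocytes for 1. The heat map of all members by class shows this order, each gene scaled to its own highest class. Several of these places are near ties or rest on few UMIs. Slc32a1 was at 17.8 CPM in microglia and 15.3 in vascular cells, levels read as background below. Trak2 was at 53.05 CPM in perivascular macrophages and 52.65 in astrocytes. With other sets of nuclei the highest type changed for Gabra6, Gabre, Gabrq, Gabarap, Gabarapl1, Gabarapl2 and Trak2. Levels are CPM of the class in each animal, averaged over 17 animals and given with their SD. They are compared between classes for a gene. Where 2 genes are set side by side, the ratio of their UMIs is compared between classes, since its size within a class also depends on capture, which moves with gene length and intron content.

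**Figure D1:**
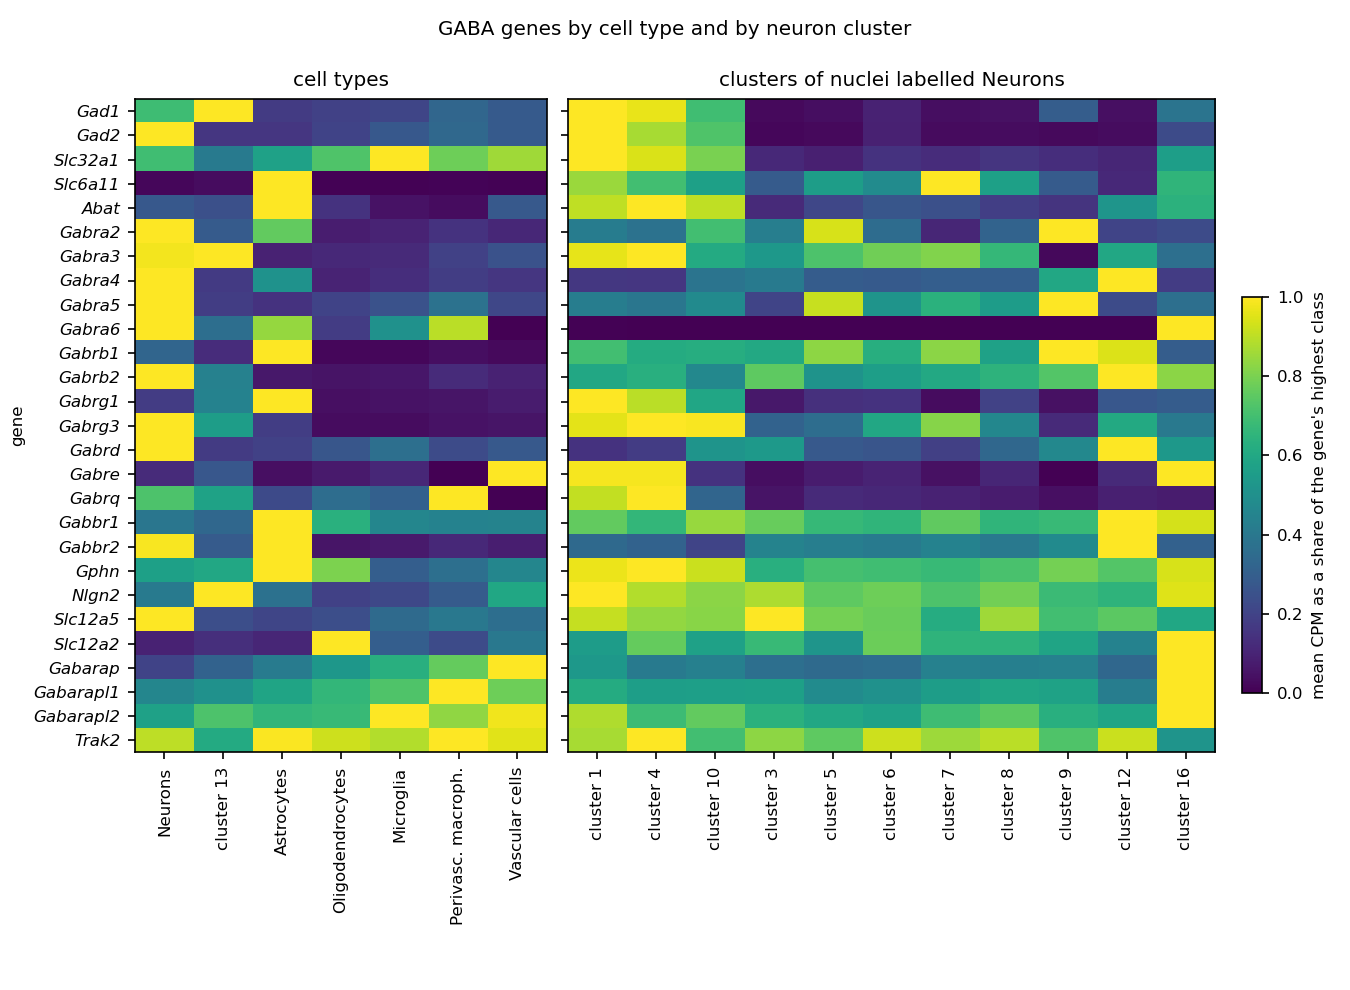
Mean CPM over 17 animals for 27 GABA genes (rows) in 7 cell types (left) and the 11 described neuron clusters (right), as a share of the gene's highest class in that panel (colour, 0 to 1). Gad1, Gad2 and Slc32a1 are brightest in clusters 1, 4 and 10, Slc6a11 in astrocytes, Slc12a2 in oligodendrocytes and Gabra6 in cluster 16, where means pool unlike animals; Gabre and Gabrq are below 3 CPM in every class, so their colours rest on few UMIs.

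Synthesis and vesicular loading separated neurons by class. Gad1, the decarboxylase isoform that makes GABA throughout the cell, averaged 149 CPM ± 19.8 (SD) in cluster 1 (lowest 112, median 154, highest 184), 144 CPM ± 13.1 in cluster 4 (lowest 121, median 147, highest 166) and 103 CPM ± 15.3 in cluster 10 (lowest 67.9, median 107, highest 127), against 3.60 CPM ± 1.80 in cluster 3 (lowest 1.10, median 3.49, highest 8.60). Gad2, the isoform enriched at nerve endings, had the same order, with 214 CPM ± 16.1 in cluster 1 (lowest 189, median 218, highest 243), 186 CPM ± 14.8 in cluster 4, 155 CPM ± 27.4 in cluster 10 and 3.51 CPM ± 1.18 in cluster 3. The animals' values for clusters 1 and 4 overlapped for both genes, and in every animal all 3 GABAergic-like clusters lay above cluster 3. By type, Gad2 was highest in neurons (72.2 CPM, then 24.3 in perivascular macrophages), but Gad1 was highest in the precursor-like cluster 13 (79.9 CPM, then 55.0 in neurons). Slc32a1, the vesicular carrier, averaged 30.0 CPM ± 6.52 in cluster 1 (lowest 18.4, median 28.6, highest 42.6), 28.3 CPM ± 5.21 in cluster 4 and 24.0 CPM ± 7.27 in cluster 10, and 2.69 to 4.62 CPM in the 5 excitatory neuron-like clusters. Across the 11 described clusters the rank order of Slc32a1 followed that of Gad1 (Spearman's rho 0.918). Without the authors' doublets the highest cluster became cluster 4 for Gad1 and Slc32a1.

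A low level of these transcripts was counted in every class. Gad1 had at least 1 UMI in 30.8% of cluster 1 nuclei (median 3572 UMIs), 1.89% of cluster 3 nuclei (5084 UMIs) and 2.10% of oligodendrocytes (1279 UMIs), and after thinning every nucleus to 500 UMIs the shares were 6.68%, 0.204% and 0.812%. Slc32a1 was at 12.9 CPM in oligodendrocytes, 15.3 in vascular cells and 17.8 in microglia, above its 12.4 over all neurons, with a UMI in 1.80% of oligodendrocytes and 16.6% of cluster 4 nuclei (median 6420 UMIs). Levels of this size in cells that should lack a gene are read as background here, and the part of free RNA in the droplets was not tested. Gad1 is overlapped on the opposite strand by Gad1os and Slc32a1 by Gm14205, and the labels do not say whether counting used strand, so reads of the partners cannot be told apart.

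A high ratio of Gad1 to Gad2 UMIs set 2 further classes apart from both the GABAergic-like and the excitatory neuron-like clusters. In the dentate granule neuron-like cluster 9, Gad1 averaged 43.8 CPM ± 3.57 (lowest 38.4, median 43.4, highest 50.3) and Gad2 5.74 CPM ± 2.36 (lowest 2.87, median 5.62, highest 13.1), while in the precursor-like cluster 13 Gad1 averaged 79.9 CPM ± 8.92 (lowest 61.2, median 79.7, highest 93.8) and Gad2 11.5 CPM ± 5.83 (lowest 3.65, median 9.07, highest 25.7). The ratio of Gad1 to Gad2 UMIs was 7.87 in cluster 9 (3.85 to 14.5 over the animals) and 7.23 in cluster 13 (3.05 to 23). It was 0.685 in cluster 1 (0.532 to 0.841), 0.764 in cluster 4 (0.62 to 0.906), 0.657 in cluster 10 (0.495 to 0.918), 1.05 in oligodendrocytes (0.778 to 1.42) and 0.737 to 1.04 in the 5 excitatory neuron-like clusters (0.2 to 2 over their animals), so the animals of clusters 9 and 13 did not overlap with those of these classes. Gad1 UMIs were found without Gad2 UMIs in 15.4% of cluster 9 and 14.5% of cluster 13 nuclei, against 1.85% of cluster 3 and 2.06% of oligodendrocytes, but also in 14.1% of cluster 10, 11.7% of cluster 4 and 11.4% of cluster 1 nuclei, and in 15.5% of the doublet-rich cluster 17. The GABAergic-like clusters differed in the nuclei with both genes, which were 0.435% of cluster 9 and 0.450% of cluster 13, against 19.4% in cluster 1, 31.8% in cluster 4 and 18.3% in cluster 10. The thinned shares for Gad1 were 2.23% in cluster 9 and 3.65% in cluster 13, again above the 0.204% of cluster 3 and the 0.812% of oligodendrocytes. Leaving out the authors' doublets, cluster 9 had a mean of 43.8 CPM of Gad1 and cluster 13 one of 79.6. Slc32a1 was at 3.97 CPM in cluster 9 and 7.34 in cluster 13.

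**Figure D2:**
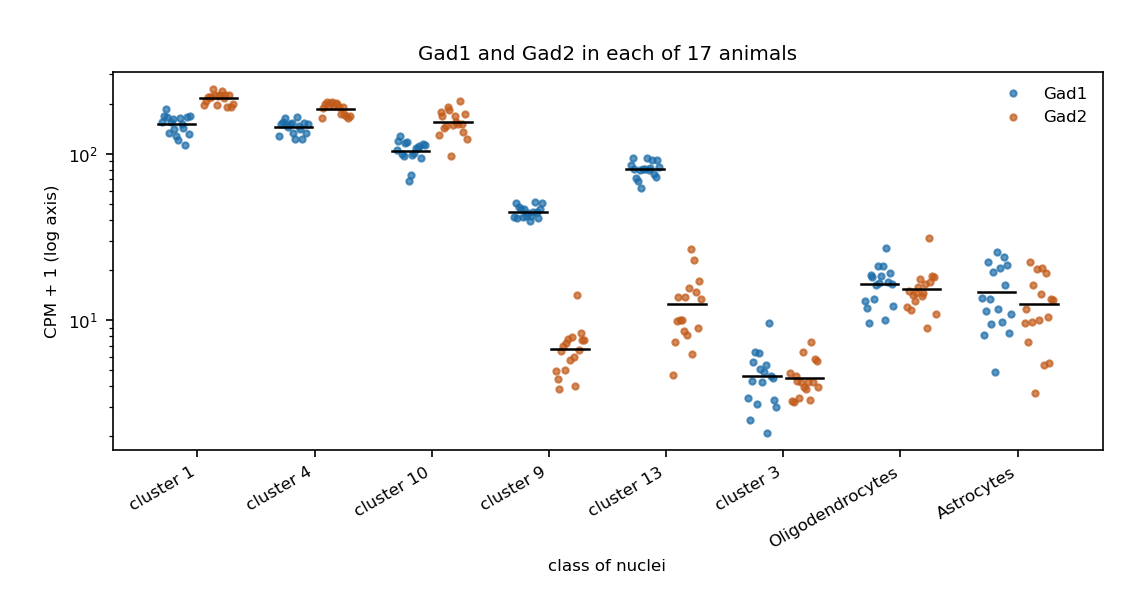
Gad1 (blue) and Gad2 (orange) in CPM + 1 on a log axis, 1 point per animal (17 animals) and a bar at the mean, in 6 neuron clusters or precursor-like nuclei and 2 glial types. The ratio of Gad1 to Gad2 UMIs differs between classes: it is 0.657 to 0.764 in clusters 1, 4 and 10, and 7.87 and 7.23 in clusters 9 and 13, with no overlap between the animals.

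The carrier Slc6a11 and the breakdown enzyme Abat were highest in astrocytes. Slc6a11, the astrocytic GABA carrier known as GAT-3, averaged 658 CPM ± 104 in astrocytes (lowest 536, median 630, highest 892), 31.5 times the 20.9 CPM of cluster 13 that came second, and astrocytes were above it in every animal. It had a UMI in 53.9% of astrocytes (median 1800 UMIs) and 0.564% of oligodendrocytes (1279 UMIs), and none of the 11 described neuron clusters averaged more than 18.8 CPM (cluster 7). Abat averaged 228 CPM ± 26.1 in astrocytes (lowest 194, median 221, highest 296), 3.58 times the 63.6 CPM of vascular cells, and among neurons 129, 117 and 117 CPM in clusters 4, 10 and 1 against 15.6 in cluster 3 and 19.6 in cluster 9. Across the 11 described neuron clusters the rank order of Abat followed that of Gad2 (Spearman's rho 0.918, a description over clusters that share the same animals). The carrier Slc6a13, from the list of other pathway genes, was at 458 CPM in vascular cells and below 1 CPM in the other 6 types.

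The alpha subunits of GABA-A receptors, which help to form the GABA binding site, each had an order of their own over the 11 described clusters. Gabra2 averaged 768 CPM ± 60.4 in the dentate granule neuron-like cluster 9 and 720 CPM ± 46.0 in cluster 5, and its lowest mean among the other described clusters was 83.7 CPM in cluster 7. By type it was 367 CPM in neurons and 279 in astrocytes. Gabra3 was lowest where Gabra2 was highest: cluster 9 had 2.95 CPM ± 1.23 (lowest 1.32, median 2.86, highest 6.16), while the other described clusters, cluster 16 left out, had means of 68.1 to 127 CPM, and cluster 13 (93.5 CPM) was level with neurons (91.8). Gabra4, a subunit of extrasynaptic receptors, averaged 466 CPM ± 48.0 in the thalamic neuron-like cluster 12, above the 279 CPM of cluster 9 in every animal, and by type 156 in neurons and 79.4 in astrocytes. Gabra5, common in the hippocampus, averaged 128 CPM in cluster 9 and 117 in cluster 5, with 26.1 in cluster 3, and by type 65.2 in neurons and 24.5 in perivascular macrophages. Gabra6 averaged 164 CPM in cluster 16 and less than 1 CPM in each of the other 10 described clusters. Over all neurons it was 2.45 CPM, with 2.19 in perivascular macrophages and 2.06 in astrocytes. The last 2 levels rest on few nuclei: a Gabra6 UMI was found in 0.304% of 657 perivascular macrophages and 0.282% of 4972 astrocytes.

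Beta, gamma and delta subunits each had their own order over types and clusters. Gabrb1 averaged 2889 CPM ± 329 in astrocytes (lowest 2353, median 2838, highest 3615), 3.06 times the 943 CPM of neurons and above them in every animal, and among the described clusters it was highest in cluster 9 (1333 CPM). Gabrb2 averaged 673 CPM in cluster 12, 423 in neurons, 186 in cluster 13 and only 26.8 in astrocytes. Gabrg1, a gamma subunit found in glia, averaged 146 CPM ± 21.2 in astrocytes (lowest 121, median 137, highest 191), 65.2 CPM in cluster 13 and 64.7 in cluster 1, but 2.03 in cluster 7 and 2.97 in cluster 9. Gabrg3 was at 1367, 1352 and 1312 CPM in clusters 4, 10 and 1, and at 164 in cluster 9, and by type at 872 in neurons and 486 in cluster 13. The excitatory neuron-like cluster 7 was close to the first 3: after thinning, 37.2% of its nuclei had a Gabrg3 UMI, against 41.8%, 44.0% and 40.3%. Gabrd, the subunit of extrasynaptic receptors that carry tonic current, averaged 94.7 CPM ± 19.5 in cluster 12, above the 50.7 CPM of cluster 3 in every animal, and by type 32.6 CPM in neurons and 11.9 in microglia. Gabra4 and Gabrb1 overlap on opposite strands, as do Gphn and Gm48226, and Gabarapl1 and 1700101I11Rik. Gabra5 is overlapped as well, so part of each count may belong to the partner. Gabre and Gabrq were close to the limit of detection: Gabre averaged 0.306 CPM and Gabrq 0.807 CPM over all nuclei. By type Gabre was highest in vascular cells (2.54 CPM, from 4 UMIs), then cluster 13 (0.686), and Gabrq in perivascular macrophages (1.204 CPM, from 1 UMI in 1 animal), then neurons (0.868). Both orders rest on these few UMIs: with nuclei of 1000 or more UMIs the highest type of Gabrq became neurons. Among the described clusters Gabre was at 0.865 CPM in cluster 16, again from 1 UMI, and at 0.854 and 0.851 in clusters 1 and 4, and Gabrq reached 2.42 in cluster 4.

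GABA-B receptor subunits differed in their balance between types. Gabbr2, which brings the dimer to the membrane and couples it to G proteins, averaged 1123 CPM ± 109 in cluster 12 (lowest 989, median 1102, highest 1370), above the 539 CPM of cluster 9 in every animal, and 228 in cluster 10. Astrocytes (473 CPM) and neurons (469 CPM) were level and oligodendrocytes far lower (27.3). Gabbr1, the subunit that binds GABA, averaged 262 CPM ± 39.7 in astrocytes, 166 CPM in oligodendrocytes and 103 in neurons, with 140 in cluster 12. The ratio of Gabbr2 to Gabbr1 UMIs was 4.56 in neurons (3.47 to 5.67 over the animals) and 7.89 in cluster 12 (6.24 to 9.74), and 0.163 in oligodendrocytes (0.135 to 0.216) and 0.272 in microglia (0.118 to 0.419). The animals' ratios in neurons did not overlap with those in oligodendrocytes or microglia. Gabbr2 had a UMI in only 3.59% of oligodendrocytes and 3.38% of microglia, near the 4.41% of vascular cells. The part of background in these low ratios was not tested.

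Of the chloride carriers, Slc12a5 was highest in neurons and Slc12a2 in oligodendrocytes. Slc12a5 (KCC2), which lowers chloride in mature neurons, averaged 96.1 CPM ± 6.00 in neurons (lowest 85.4, median 96.2, highest 106), with means of 70.4 to 118 CPM over the described clusters, 38.7 in perivascular macrophages and 23.2 in oligodendrocytes. Slc12a2 (NKCC1), which raises chloride, averaged 617 CPM ± 58.2 in oligodendrocytes (lowest 517, median 599, highest 723), 247 CPM in vascular cells and 58.9 in neurons, and oligodendrocytes were above vascular cells in every animal. The ratio of Slc12a2 to Slc12a5 UMIs was 27.1 in oligodendrocytes (14.3 to 43.9 over the animals) and 0.61 in neurons (0.516 to 0.725). The 2 ranges did not overlap, and the ratio in the other 5 types lay between 3.3 and 7.59. Slc12a5 had a UMI in only 3.17% of oligodendrocytes, 3.39% of microglia and 4.32% of vascular cells. The part of background in the ratios outside neurons was not tested. Among the described clusters, Slc12a2 was highest in cluster 16 (86.0 CPM), which rests on the 4 animals rich in Gabra6: they had 154 to 187 CPM there, and the other 13 had 14.3 to 87.9 (mean 60.1), below the mean of 66.8 CPM in cluster 6. Slc12a5, lowest in cluster 16, averaged 102.7 CPM there in the 4 animals and 60.4 in the others.

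**Figure D3:**
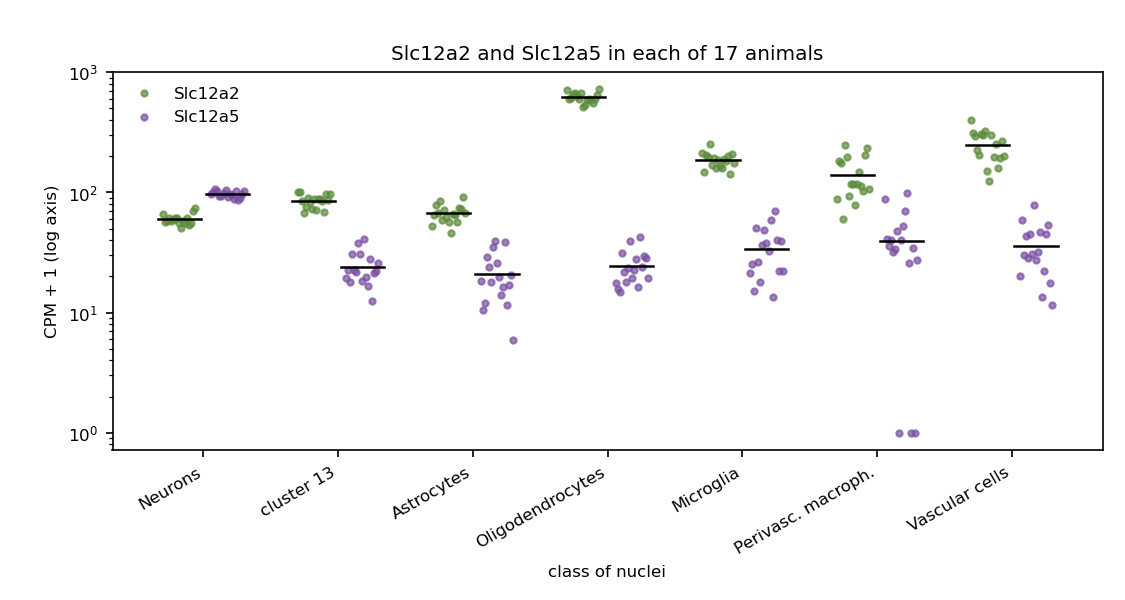
Slc12a2 (green) and Slc12a5 (purple) in CPM + 1 on a log axis, 1 point per animal (17 animals) and a bar at the mean, in 7 cell types. The ratio of Slc12a2 to Slc12a5 UMIs is lowest in neurons (0.61), 3.3 to 7.59 in 5 types and highest in oligodendrocytes (27.1).

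Scaffold and trafficking genes were counted in every type, with their lowest or middle levels in neurons. Gphn, the gephyrin scaffold that clusters receptors at inhibitory synapses, averaged 1294 CPM in astrocytes, 1037 in oligodendrocytes and 736 in neurons, and the described clusters other than 16 ranged from 583 to 922 CPM. Nlgn2, the adhesion protein of inhibitory synapses, averaged 74.5 CPM in cluster 13 (lowest 53.2, median 75.8, highest 95.1), 44.3 CPM in vascular cells and 30.8 in neurons, with 37.5 in cluster 1. Gabarap, a receptor-associated protein of the autophagy machinery, averaged 76.7 CPM in vascular cells, 58.7 in perivascular macrophages and 15.5 in neurons. Its relatives Gabarapl1 (45.9 CPM in perivascular macrophages, 35.8 in vascular cells) and Gabarapl2 (87.6 in microglia, 85.6 in vascular cells) were also lowest in neurons, at 21.1 and 50.3 CPM. Among the described clusters all 3 were highest in cluster 16, at 37.1, 38.2 and 73.6 CPM, though not above the next cluster in every animal. Cluster 16 pools the 4 animals rich in Gabra6 with 13 others: Gabarap was 24.4 to 41.9 CPM in the 4 and 0 to 105 in the 13, and the medians were 36.0 and 37.7. Trak2, an adaptor for transport of mitochondria and receptors, ranged from 32.4 CPM in cluster 13 to 53.0 in perivascular macrophages and 52.6 in astrocytes, and its highest described cluster was cluster 4 (55.7 CPM). Without the authors' doublets the highest type became vascular cells for Gabarapl2 and astrocytes for Trak2, and with nuclei of 1000 or more UMIs it became vascular cells for Gabarapl1.

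Gabra6, a subunit typical of cerebellar granule cells, was counted mainly in 4 animals from 3 groups. Of 2528 UMIs, 1903 (75.3%) were in cluster 16, which holds 1.11% of nuclei. With saline the 4 animals had 0, 7, 12 and 0 UMIs, with Malat1 ASO 3, 0, 1214 and 0, with OTV:Malat1 340, 10 and 0, and with anti-TfR:Malat1 547, 352, 31, 0, 0 and 12. Cluster 16 made up 10.0% of neurons in the highest animal (Malat1 ASO), 6.53% and 2.97% in the highest with anti-TfR:Malat1 and 3.63% in the highest with OTV:Malat1, and 0.192% to 0.764% in the other 13 animals. Within cluster 16 the level of Gabra6 was 522 to 584 CPM in these 4 animals and 0 to 199.5 CPM in the others. The granule cell markers Fat2, Cbln3 and Etv1 moved with it there: Fat2 was 239 to 396 CPM in the 4 animals and 0 to 79.8 in the others, Cbln3 44.0 to 92.7 against 0 to 12.6, and Etv1 598 to 686 against 0 to 399. Cbln1, also on the list of granule cell markers, is not given here. Cluster 16 is called cerebellar granule neuron-like here for these 4 animals, by Gabra6 and the markers given. A Gabra6 UMI was found in 39.5% of its nuclei (median 1242 UMIs) and in 0.0491% of oligodendrocytes (1279 UMIs). How much cerebellum each piece of posterior tissue held is not given in the labels, and its part in these values was not tested.

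In these 4 animals the receptor subunits of cluster 16 were unlike those of the other 13, and the means over 17 animals hide it. Gabrd was 107 to 159.5 CPM in the 4 animals (mean 133, against 94.7 in cluster 12 over all animals) and 0 to 75.2 in the others (mean 24.9). Gabrb2 was 861 to 974.5 CPM (mean 901, against 673 in cluster 12) and 252 to 696 in the others (mean 450), so for both genes the 4 animals lay above the other 13 without overlap. The share of all genes that part the 4 animals from the other 13 in this cluster was not computed. Gphn was 1049 to 1164 CPM (mean 1111, against 922 in cluster 4) and 449 to 1058 in the others (mean 791), with overlap. Other subunits had lower means in the 4. Gabra2 was 30.5 to 48.2 CPM (mean 40.2) against 52.8 to 394 (mean 219), without overlap. Gabrg3 was 42.7 to 174.5 CPM (mean 111) against 360 to 1229 (mean 689), again without overlap. Gabra4 was 22.4 to 36.7 CPM (mean 29.6) against 35.1 to 139 (mean 98.4), with overlap, and Gabrb1 had a mean of 95.3 against 484. Gabra3 had means of 17.5 and 55.4 CPM and Gabra5 of 17.4 and 55.2. The 4 animals were picked by their Gabra6 UMIs, so these values are a description with no test, and the other 13 animals had 22 to 93 nuclei each in the cluster.

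**Figure D4:**
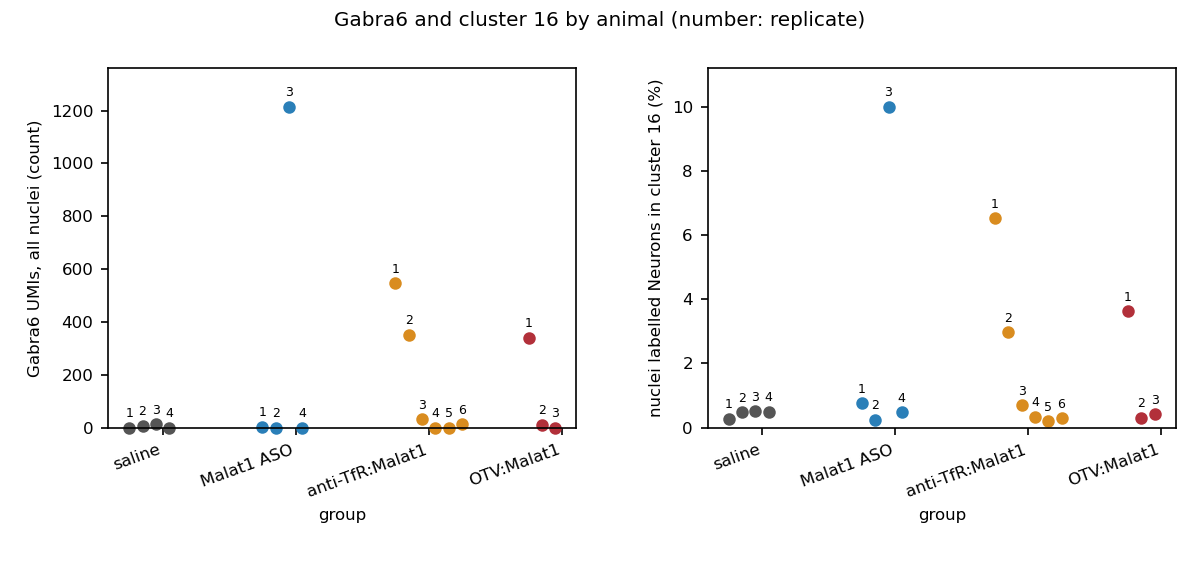
Gabra6 UMIs over all nuclei (left, count) and the share of neurons in cluster 16 (right, percent), 1 point per animal, labelled with its replicate number, in 4 groups. The same 4 animals are highest in both panels: Malat1 ASO 3, anti-TfR:Malat1 1 and 2, and OTV:Malat1 1.

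The design asks whether delivery of the oligonucleotide changed these genes, and no member passed the test in any class. Counts were summed per animal, tested with edgeR's quasi-likelihood test over all genes and adjusted by the Benjamini-Hochberg method, with a threshold of 0.05, for OTV:Malat1, anti-TfR:Malat1 and Malat1 ASO against the same saline animals and for OTV:Malat1 against anti-TfR:Malat1. Over all nuclei 0 of 27 members passed in each comparison, where 0% of 21375 genes did, so the target Malat1 did not pass there either. At an unadjusted p below 0.05 there were 0 members with OTV:Malat1 (1.11% of all genes), 1 with anti-TfR:Malat1 (1.21%), 1 with Malat1 ASO (0.604%) and 0 between the 2 conjugates (1.61%), and both times the member was Gabra6. In neurons 0 of 27 passed, where 0% of 20851 genes did, and the unadjusted counts were again 0 (background 1.22%), 1 (1.18%), 1 (0.638%) and 0 (2.08%), both Gabra6. With the 4 animals rich in Gabra6 left out, the unadjusted counts were 0 of 27 in all 4 comparisons for both classes. DESeq2 also called 0 members in each. Over all nuclei, fewer nuclei of a type and less RNA per nucleus cannot be told apart.

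Genes of synthesis and chloride export are given first. In neurons Gad1 was at 59.8, 65.0, 47.7 and 55.6 CPM with saline, at 49.0, 68.5 and 53.4 with OTV:Malat1, at 66.4, 56.1, 46.1 and 54.0 with Malat1 ASO and at 48.5 (lowest), 52.8 (median) and 54.7 (highest) with anti-TfR:Malat1. All groups overlapped. The log2 fold change of Gad1 was -0.07 with OTV:Malat1 (95% interval -0.29 to 0.16), -0.09 with anti-TfR:Malat1 and -0.03 with Malat1 ASO, each with an edgeR adjusted p of 1. Gad2 in neurons was at 71.0, 85.8, 79.2 and 60.4 CPM with saline and at 65.6, 96.4 and 66.1 with OTV:Malat1, a log2 fold change of -0.03 (-0.26 to 0.20). For Slc12a5 the value was -0.15 (-0.30 to 0.002), from 105, 98.9, 96.7 and 101 CPM with saline and 93.1, 102 and 89.2 with OTV:Malat1. The median half-width of the 95% interval over the members in neurons was 0.21 on the log2 scale with OTV:Malat1, 0.18 with anti-TfR:Malat1 and 0.19 with Malat1 ASO, and for 24, 25 and 25 of 27 members the whole interval lay between -1 and 1. The median log2 fold change of the members in neurons was -0.02, 0.01 and 0.01, beside 0.00 for all genes in each comparison. The plot of changes in neurons shows all members but Gabra6.

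For the carriers and the GABA-B receptor no change was called, and some of them spread widely within groups. Slc32a1 in neurons was at 10.3, 14.4, 15.1 and 7.17 CPM with saline and at 10.8, 22.7 and 9.93 with OTV:Malat1, so a single treated animal lay above the saline range (log2 fold change 0.22, 95% interval -0.29 to 0.74). Slc6a11 in astrocytes was at 657, 609, 595 and 596 CPM with saline, at 728, 664 and 573 with OTV:Malat1, at 738, 542, 630 and 738 with Malat1 ASO and at 536 (lowest), 621 (median) and 892 (highest) with anti-TfR:Malat1. The treated animals spread on both sides of the saline animals, with log2 fold changes of -0.01 (-0.34 to 0.31), 0.11 and 0.15. Gabbr2 in neurons was at 489, 418, 474 and 462 CPM with saline and at 459.5, 419 and 524 with OTV:Malat1, a log2 fold change of -0.04 (-0.23 to 0.16). Slc12a2 in oligodendrocytes averaged 616 CPM ± 77.8 with saline and 622 CPM ± 48.8 with OTV:Malat1, and its edgeR log2 fold change was -0.17 (-0.41 to 0.08), opposite in sign to the CPM means. The sign also differed for Gad2 and Gabbr2 in neurons and Slc6a11 in astrocytes, and in all for 5 of 27 members in neurons, 5 of 18 in astrocytes and 6 of 24 in oligodendrocytes with OTV:Malat1. Between the conjugates it differed for 11 of 27 in neurons. Malat1 is part of the CPM total, and edgeR's TMM scaling differs from it, but whether either bears on these signs was not tested.

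**Figure D5:**
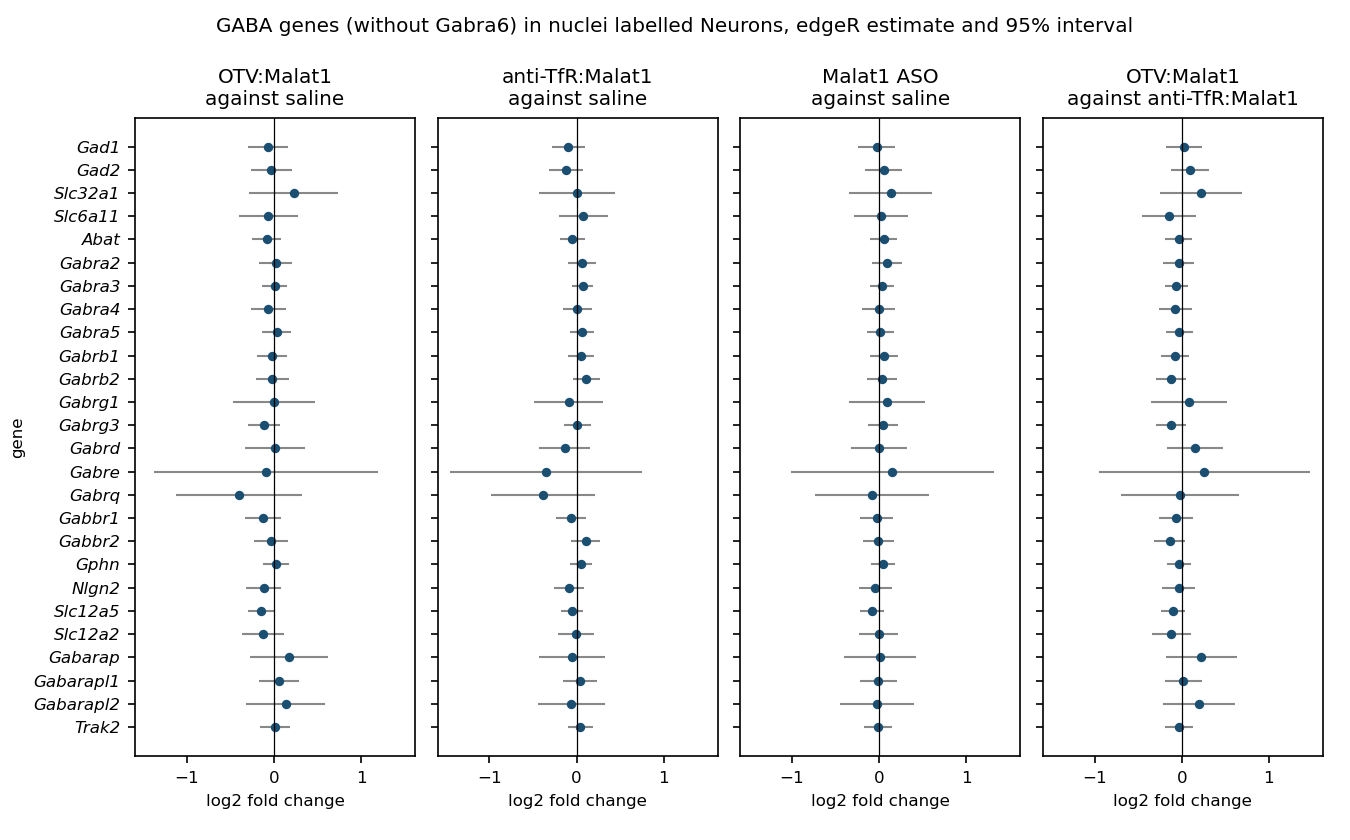
edgeR log2 fold changes (points) with 95% intervals (lines) for 26 members in neurons, in 4 comparisons; Gabra6 is left out because its interval is many times wider. The points lie between -0.40 and 0.26, and among these 26 genes only the rarely counted Gabre and Gabrq have intervals that reach past -1 or 1.

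Gabra6 had the largest fitted changes, and they rest on the animals named above. Over all nuclei its edgeR log2 fold change against saline was 4.64 with OTV:Malat1 (SE 2.53, adjusted p = 1), 5.04 with anti-TfR:Malat1 (SE 2.34, adjusted p = 1) and 5.88 with Malat1 ASO (SE 2.39, adjusted p = 1). In each of these groups at least 1 animal had 0 UMIs, as had 2 saline animals, and the groups overlapped. Without the 4 animals rich in Gabra6 the log2 fold changes were 0.09 (SE 1.59), 1.121 (SE 1.15) and -2.03 (SE 1.96), each with an adjusted p of 1, so the sign turned for Malat1 ASO. In neurons they were 0.09, 1.01 and -2.02, and between the conjugates -1.04 over all nuclei and -0.93 in neurons. Exact two-sided permutation tests of its log2(CPM + 1) in all animals gave p = 0.514, 0.238 and 0.886. Across the alternative settings the log2 fold change ran from 0.08 to 5.66, from 1.121 to 6.199 and from -2.03 to 6.90, with no adjusted p below 0.934. The member with the lowest value over all nuclei was Gabrq with OTV:Malat1 (-0.40), Gabre with anti-TfR:Malat1 (-0.42) and Slc12a2 with Malat1 ASO (-0.08), with an adjusted p of 1 each, and their groups overlapped too. Between the conjugates the extremes were Gabre (0.35) and Gabra6 (-0.40). Across the alternative settings these ran from -0.50 to 1.02 and from -4.955 to 0.79, so both signs turned. In neurons the extremes were Gabra6 with each treatment (4.55, 5.01 and 5.78), Gabrq with OTV:Malat1 (-0.40) and anti-TfR:Malat1 (-0.38), Slc12a5 with Malat1 ASO (-0.08), and Gabre (0.26) and Gabra6 (-0.46) between the conjugates. There too the signs of Gabre (-0.93 to 0.96) and Gabra6 (-4.92 to 0.80) between the conjugates turned across the settings.

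In glia, vessels and the precursor-like class no member passed either. Over these 6 classes 0 of 92 member tests passed in each comparison, where 0.0106% of 47301 gene tests passed with OTV:Malat1, 0% with anti-TfR:Malat1, 0% with Malat1 ASO and 0.00423% between the conjugates. At an unadjusted p below 0.05 there were 4 higher and 1 lower with OTV:Malat1 (5.43% of the member tests, 3.57% of all), 1 and 1 with anti-TfR:Malat1 (2.17%, against 2.61%), 0 with Malat1 ASO (background 2.13%) and 0 and 1 between the conjugates (1.09%, against 3.66%). Named after their values were seen, these were, with OTV:Malat1, Gad1 in microglia (0.86), Gad2 in oligodendrocytes (0.53), Gabarapl1 (0.66) and Gabra5 (0.80) in cluster 13 and Gabrg3 in astrocytes (-0.57). With anti-TfR:Malat1 they were Gabarapl1 in cluster 13 (0.58) and Gabrg3 in astrocytes (-0.44), and between the conjugates Gabra4 in microglia (-0.90), all log2 fold changes with an edgeR adjusted p of 0.968 or more. Gad1 in microglia (mean 16.8 CPM, 147 UMIs over 17 animals) and Gad2 in oligodendrocytes (14.5 CPM) are at levels read above as background.

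Astrocytes and oligodendrocytes are given in more detail. Gabarap in astrocytes was at 27.8, 23.6, 32.0 and 17.2 CPM with saline and at 33.4, 56.0 and 40.8 with OTV:Malat1, on 7 to 35 UMIs per animal. By CPM these groups were apart only narrowly (32.0 and 33.4), and the share of all genes that part in this way was not computed. The log2 fold change of Gabarap was 0.64 by edgeR (SE 0.33, adjusted p = 0.999), against a difference of 0.77 on log2(CPM + 1). On that CPM scale the exact permutation p of 0.0571 is the smallest that 3 against 4 animals can give. Gabrg3 in astrocytes was at 122, 234, 243 and 181 CPM with saline and at 139, 127 and 140 with OTV:Malat1, a log2 fold change of -0.57 (SE 0.20, unadjusted p = 0.00814, edgeR adjusted p = 0.999). The lowest saline animal lay below all OTV:Malat1 animals, so the groups overlapped. The other extremes in astrocytes were Gabarapl1 (0.47) and Gabrg3 (-0.44) with anti-TfR:Malat1, Gabarap (0.43) and Gabarapl2 (-0.30) with Malat1 ASO, and Gabarap (0.54) and Gabrb2 (-0.28) between the conjugates. Of these, the sign of Gabarapl2 turned across the alternative settings (-0.53 to 0.04). Gabrb1 in oligodendrocytes was at 29.8, 35.9, 44.6 and 54.5 CPM with saline and between 50.5 and 60.6 with anti-TfR:Malat1, a log2 fold change of 0.37 (SE 0.20, adjusted p = 1). The 32 exact permutation tests were run on members picked by their edgeR change in the same comparison. Of these, the 8 for OTV:Malat1 against saline could not fall below 0.0571. The exact permutation p of Gabrb1 was 0.0381, the only one of the 32 below 0.05. With animals exchanged within batches only it was 0.111, where the smallest p possible was 0.0556. The other extremes in oligodendrocytes were Slc32a1 (0.65) and Gabrg3 (-0.30) with OTV:Malat1, Slc6a11 (-0.10) with anti-TfR:Malat1, Gabrb2 (0.45) and Gabrd (-0.10) with Malat1 ASO, and Gad2 (0.47) and Gabrg3 (-0.45) between the conjugates. Slc32a1 (12.9 CPM) and Gad2 (14.5 CPM) are at levels read as background there. For Gabrb1 oligodendrocytes were the lowest type (49.9 CPM, against 2889 in astrocytes). A Gabrb1 UMI was found in 5.83% of oligodendrocytes and 5.10% of microglia, and the part of background in its level there was not tested. Across the alternative settings the sign turned for Slc32a1 (-0.004 to 0.87), Slc6a11 (-0.26 to 0.003) and Gabrd (-0.35 to 0.21). Malat1 itself was lower in astrocytes with OTV:Malat1 than with saline (log2 fold change -1.65, edgeR adjusted p = 5.79e-07).

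In the 16 neuron clusters large enough to fit, 0 of 349 member tests passed in each comparison, where 0.000552% of 181182 gene tests passed with OTV:Malat1, 0% with anti-TfR:Malat1, 0% with Malat1 ASO and 0.000552% between the conjugates. The unadjusted counts were 8 higher and 10 lower with OTV:Malat1 (5.16% of the member tests, 2.66% of all), 7 and 2 with anti-TfR:Malat1 (2.58%, against 2.47%), 8 and 2 with Malat1 ASO (2.87%, against 1.8%) and 4 and 9 between the conjugates (3.72%, against 3.38%). Of these 16, clusters 2, 11, 14, 17 and 18 are those led by genes of other cells. In the 11 described clusters alone, 0 of 255 member tests passed, where 0% of 146886 gene tests did, and the unadjusted counts were 5 higher and 8 lower with OTV:Malat1 (5.1% of the member tests, 2.49% of all), 2 and 1 with anti-TfR:Malat1 (1.18%, against 2.18%), 1 and 1 with Malat1 ASO (0.784%, against 1.28%) and 4 and 8 between the conjugates (4.71%, against 3.24%). A member can enter these counts once per cluster, and the clusters come from the same animals, so the tests are not independent. Slc12a5 was the member of lowest unadjusted p over all neurons with OTV:Malat1 (0.0532), and it was among these with OTV:Malat1 in cluster 10 (log2 fold change -0.24, SE 0.09) and cluster 6 (-0.18, SE 0.08), each with an edgeR adjusted p of 1. Gad1 in cluster 7 had a log2 fold change of 1.02 (SE 0.39, adjusted p = 1), a cluster where it averages 5.42 CPM. With Malat1 ASO the 1 higher in the described clusters was Gabra6 in cluster 4 (log2 fold change 5.632, SE 2.435). It was also higher there with anti-TfR:Malat1 (5.192, SE 2.457) and in cluster 2 with Malat1 ASO (3.857). In clusters 2 and 4 Gabra6 had no fitted value without the 4 animals rich in it. The 1 lower with anti-TfR:Malat1 was Gabbr1 (-0.70) in cluster 16, which mixes unlike nuclei. These members were picked after their values were seen. No call was made either among 34 other genes of GABA breakdown and transport, glutamine supply, inhibitory synapses and receptor trafficking: 0 of 33 tested passed over all nuclei and 0 of 31 in neurons in each comparison, with 0 to 2 at an unadjusted p below 0.05.

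For a share of neurons, clusters were picked whose pooled Gad1 and Gad2 CPM were both above those of all neurons, which gave the 3 GABAergic-like clusters. The share counts every nucleus of these clusters, though in cluster 1 only 30.8% had a Gad1 UMI and 39.5% a Gad2 UMI. Its relation to the summed levels of Gad1, Gad2 and Slc32a1 was not tested. The share of neurons in these clusters varied widely within groups. It was 37.8%, 41.2%, 39.2% and 33.3% with saline, 32.1%, 45.5% and 33.5% with OTV:Malat1, 42.6%, 39.2%, 32.9% and 38.6% with Malat1 ASO, and 29.3% (lowest), 34.5% (median) and 43.7% (highest) with anti-TfR:Malat1. The difference from saline was -0.80 percentage points with OTV:Malat1, -2.66 with anti-TfR:Malat1 and 0.45 with Malat1 ASO, and 1.86 between the conjugates. Exact two-sided permutation tests gave p = 0.914, 0.371, 0.8 and 0.714 (0.914 each after adjustment over the 4), and the within-batch differences were -0.81, -2.80, 0.45 and 2.48 points. With all animals each difference was smaller than the SD of the saline animals, 3.35 points. Leaving out 1 animal moved the differences to between -5.04 and 1.67, -4.35 and -1.48, -1.07 and 2.27, and -2.38 and 4.33 points, so their sign turned in 3 of the 4 comparisons and some passed that SD.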

How the data were processed

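Nuclei of 17 animals were counted by the authors with Cell Ranger 6.0.1 on mm10 and processed with Seurat 4, per the submitters' processing notes. The deposited values used are UMI counts per gene and nucleus in 1 matrix, with the authors' batch, doublet call, cell type label and cluster (resolution 0.4) in a metadata table. Row sums equalled the deposited total for all 284074 nuclei, and each had at least 500 UMIs. Of the metadata, 10 columns were not used. Also deposited was the authors' label score, a fraction from 0 to 1, which was not used. The labels do not say whether counting used strand.

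The 27 members and the gene lists were chosen with earlier results of these data known. Counts were summed per animal over all nuclei, each cell type with at least 20 nuclei per animal, and each neuron cluster of at least 1000 nuclei. Levels are CPM of those sums. Treatments were compared with edgeR 4.0.16 (TMM, filterByExpr, quasi-likelihood test, all 4 groups in 1 fit, Benjamini-Hochberg over all genes of a class) in R 4.3.3, with DESeq2 1.42.0 as an alternative. Single members were also tested by exact two-sided permutation of log2(CPM + 1), with scipy 1.17.1. The 3 comparisons with saline share its animals. Named by rule were all members with their highest types and clusters, and, per comparison in all nuclei, neurons, oligodendrocytes and astrocytes, the member with the largest change in each direction. The edgeR step was tested on simulated data. Annotation matched 25511 of 26131 genes (97.6%).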

Additional observations from a re-analysis of the deposited data

Results flagged for a closer look

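Single animals stood apart from their group in 12 of 87 groups of 4 to 6 animals, judged by the gap to the nearest other animal over the group's range (Dixon's test at the 95% level), and chance alone gives about 1 in 20. Over all nuclei the highest Malat1 ASO animal had 16.8 CPM of Gabra6 against 0.0505 in the next, and in the same group 1 animal had 10.0% of neurons in cluster 16 against 0.764% in the next. Among saline animals the highest had 924 CPM of Gabrb1 (next 807), and the lowest had 690.5 CPM of Gabrg3 (next 784), 28.0 CPM of Nlgn2 (next 31.1), 91.3 CPM of Slc12a2 (next 127) and 0.275% of neurons in cluster 16 (next 0.471%). With anti-TfR:Malat1 the highest animal had 39.1 CPM of Gabrg1 (next 23.6), 37.1 CPM of Gabrd (next 27.2), 0.715 CPM of Gabre (next 0.225), 837 CPM of Gphn (next 764) and 148 CPM of Slc12a2 (next 111), and these need not be the same animal.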

How the results depend on the processing

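Across 27 settings, which cover 2560 fits of a class and comparison, the count of members called was 0 wherever it was 0 in the report, with 1 exception: without the filter on low counts, 1 member was called by neuron cluster for Malat1 ASO against saline (Gabra6 in cluster 2, log2 fold change 3.87, SE 0.64, edgeR adjusted p = 1.92e-06), in a fit where 86 of 19582 genes were called higher. It rests on 1 animal: Malat1 ASO 3 had 60 UMIs (160.3 CPM) of Gabra6 there and the other 3 of its group 0, against 3 UMIs in 1 saline animal and 0 in the others. The cause was not tested. With labels moved within batches, 0 of the 32 tests of single members had an exact p below 0.05, but none of the 32 could: the smallest p possible was 0.25, 0.0556, 0.125 and 0.111 in the 4 comparisons. In the same setting the difference of Gabra6 between OTV:Malat1 and anti-TfR:Malat1 on the log2(CPM + 1) scale turned to 0.0384 in all nuclei and 0.0429 in neurons. The difference in the share of neurons in the GABAergic-like clusters for OTV:Malat1 against saline turned to 0.0367 percentage points with all nuclei as the denominator. Leaving out single animals it ran from -5.04 to 1.67 points for OTV:Malat1 against saline, turning sign without OTV:Malat1 1, OTV:Malat1 3 or saline 2, from -1.07 to 2.27 for Malat1 ASO against saline, turning without Malat1 ASO 1 or saline 4, from -2.38 to 4.33 for OTV:Malat1 against anti-TfR:Malat1, turning without OTV:Malat1 2, and from -4.35 to -1.48 for anti-TfR:Malat1 against saline.

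With the title's replicate number as a block, 0 members were called in each class and comparison. Same-numbered animals did not deviate together (correlation -0.457 to 0.724 over 21 pairs in all nuclei, 9 of them above 0.1), so the numbers were not taken to pair them. Animals of the same batch did deviate together, whatever their numbers: the median correlation was 0.433 over 10 same-numbered pairs of a batch (8 above 0.1) and 0.442 over 17 pairs with different numbers (14 above 0.1). With the batch as a block, 0 members were called in each class and comparison, and over all nuclei 2.1%, 1.91%, 0.931% and 4.03% of all genes had an unadjusted p below 0.05. By neuron cluster, keeping only the 11 described clusters (chosen after seeing the data) also gave 0 members called. Depth limits the least counted members, Gabre, Gabrq and Gabra6, and the smallest types.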
